A study of Mus musculus with 10 samples.

Results

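The Apoe, Apoc4 and Nectin2 gene cluster lies on mouse chromosome 7 and was described here through the H3K27ac regions that 2 deposited lists hold in or within 100 kb of these 3 genes (mm10). The rule kept 3 of 1320 listed regions: 1 of 428 in the list named for MDM and 2 of 892 in the list named for YSM. The members were chosen by the authors' listing of H3K27ac regions and by position, so their number and their list are a description and carry no test.

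The lists come from CUT&Tag, an assay in which an antibody brings a transposase to a chromatin mark so that the DNA around it is cut, tagged and sequenced. H3K27ac, acetylated lysine on histone H3, marks active promoters and enhancers. The library names give this mark for 4 MDM and 4 YSM libraries of brain parenchymal macrophages from Ms4a3Cre:R26-tdTomato mice, all with the same treatment, DR-3x, a term left undefined there. MDM are monocyte-derived macrophages according to the series title, YSM is not spelled out, and the labels state neither age nor sex nor the number of animals. As background, Cre driven by Ms4a3 acts in granulocyte-monocyte progenitors, so the tdTomato reporter stays on in cells that descend from them.

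Each list was read as the regions with more H3K27ac in the group it is named for. Values per library, folds and depth were not used here, so no region carries an error. A region missing from both lists may still carry the mark in both groups. The lists hold no expression, and the labelled cell type could be looked up only as regions within 100 kb of marker genes. Over all 21887 protein-coding genes, 2.41% had an MDM region and 5.68% a YSM region within that distance. Of 6 microglia markers 1, Sall1, had YSM regions, and none had an MDM region. Of 4 markers of border macrophages 1, Cd163, had an MDM region, and none of the 3 monocyte markers Ly6c2, Ccr2 and Ms4a3 had a region. Markers of other brain cells had YSM regions within 100 kb in 2 of 3 cases for astrocytes (Aldh1l1, Aqp4), 2 of 2 for oligodendrocytes (Mbp, Mog) and 1 of 2 for neurons (Snap25), and no MDM region. What part such cells had in the YSM regions at Nectin2 was not tested.

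As background, Apoe encodes apolipoprotein E, the main carrier of lipid between cells in the brain, which astrocytes and activated microglia secrete. Its neighbours Apoc1, Apoc2 and Apoc4 encode small apolipoproteins of circulating lipoproteins, and Apoc2 is the cofactor of lipoprotein lipase. In human macrophages, enhancers downstream of APOE that respond to the sterol-sensing LXR receptors act on several genes of the cluster. Nectin2 encodes CD112, an immunoglobulin-like adhesion molecule of cell junctions and a ligand of the lymphocyte receptors CD226 and TIGIT.

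The 3 regions fell into 2 places. The MDM region, chr7:19682946-19684946, lay between Apoc4 and Apoc1, outside every gene. The YSM regions, chr7:19748705-19750705 and chr7:19748966-19750966, overlapped each other and covered the transcription start of Nectin2. Apoe itself, at chr7:19696244-19701310, stood between these places and held no listed region. The map of genes and regions shows this order.

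**Figure D1:**
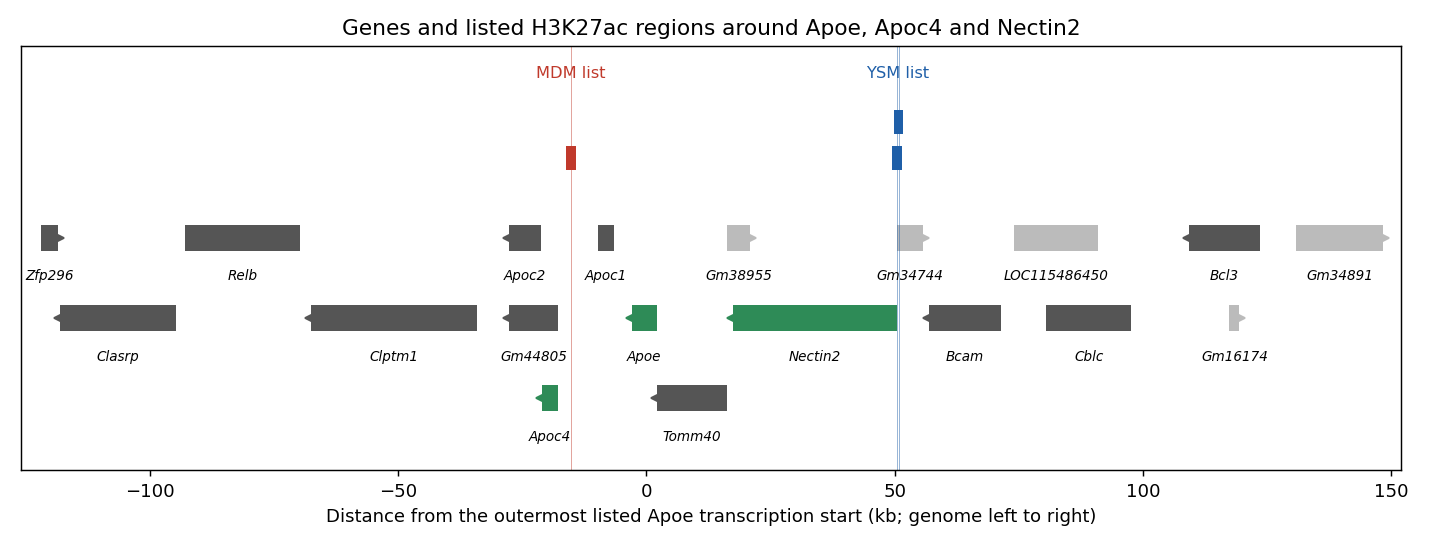
Genes (boxes, 3 members green, other protein-coding genes dark, lncRNAs light; arrowheads give the strand where the promoter table has it) and listed regions (MDM red, YSM blue), drawn against the distance in kb from the outermost listed Apoe transcription start. The MDM region lies 15.2 kb to the left of that start, between Apoc4 and Apoc1, and the YSM regions lie over 50.5 kb to its right at the start of Nectin2.

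Promoter sequences were read from the RefSeq promoter table of GRCm38.p6, the assembly of mm10, for all 3 members. Each window there runs from 250 bases before to 50 bases after a transcription start, and the bases before the start are printed 5′ to 3′ on the minus strand, which carries all 3 genes. Nectin2 is shown because both YSM regions hold its window. Apoc4 is shown because its start, which is also the listed start of Gm44805, is the nearest to the MDM region. Apoe is shown because no listed region reaches any of its 3 listed starts, of which the outermost is printed. Capitals mark matches to the searched motifs.

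Nectin2, chr7:19749574-19749823: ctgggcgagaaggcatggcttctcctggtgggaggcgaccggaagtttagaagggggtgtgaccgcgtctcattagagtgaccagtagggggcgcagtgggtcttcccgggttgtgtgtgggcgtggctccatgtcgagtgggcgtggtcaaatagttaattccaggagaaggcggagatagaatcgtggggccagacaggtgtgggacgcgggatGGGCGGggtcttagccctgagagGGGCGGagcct
Apoc4, chr7:19681461-19681710: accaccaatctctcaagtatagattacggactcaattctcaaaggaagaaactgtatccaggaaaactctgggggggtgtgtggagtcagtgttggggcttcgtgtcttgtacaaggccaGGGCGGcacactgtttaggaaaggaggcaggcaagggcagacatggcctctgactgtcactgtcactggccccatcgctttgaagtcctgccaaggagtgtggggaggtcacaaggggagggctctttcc
Apoe, outermost start, chr7:19699189-19699438: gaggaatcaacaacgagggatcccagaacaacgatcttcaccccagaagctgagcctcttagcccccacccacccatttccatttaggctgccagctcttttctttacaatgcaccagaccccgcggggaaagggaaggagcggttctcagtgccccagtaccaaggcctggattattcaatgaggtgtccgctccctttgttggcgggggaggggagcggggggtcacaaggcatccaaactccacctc

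The apolipoprotein genes came first from left to right: Apoc2 (chr7:19671579-19677941), Apoc4 (chr7:19678084-19681460), Apoc1 (chr7:19689480-19692659) and Apoe. The table also lists Gm44805 (chr7:19671579-19681460), whose span covers both Apoc2 and Apoc4 and which shares its listed start with Apoc4, so every distance from the start of Apoc4 holds for Gm44805 too. The MDM region occupied the interval between Apoc4 and Apoc1. Its midpoint lay 2.49 kb from the right end of Apoc4, which is also the transcription start of Apoc4, so the region sat upstream of this gene. Its nearer edge stood 1.49 kb from that start, and the region did not reach it. On the other side the midpoint was 5.53 kb from the left end of Apoc1. The strand of Apoc1 is not in the promoter table, and whether this end is its start was not determined here. Apoc2 began 6.01 kb from the midpoint, with Apoc4 in between.

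Relative to Apoe, which is read from right to left, the MDM region lay downstream. Its midpoint was 12.3 kb beyond the left end of the gene, the 3′ end. From the 3 listed starts of Apoe the distances were 15.2, 14.7 and 14.5 kb. The YSM regions lay on the other side of Apoe, 50.5 and 50.8 kb upstream of its outermost listed start. They were 48.4 and 48.7 kb from its right end. That end, chr7:19701310, lies beyond the outermost listed start, chr7:19699188, and is itself not a listed start. Apoe was thus flanked by regions of opposite lists, and the MDM region was the nearer. Whether the MDM region corresponds to an enhancer known from the human cluster was not tested.

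**Figure D2:**
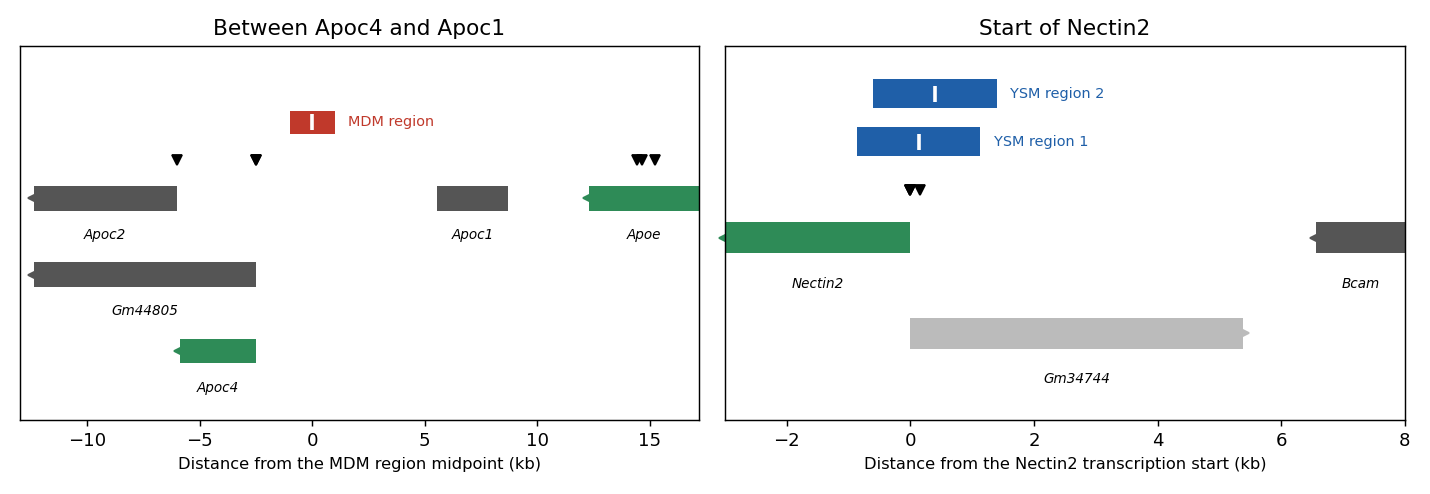
Left, genes and the MDM region against the distance in kb from its midpoint; right, genes and the YSM regions against the distance in kb from the start of Nectin2, with higher genome positions to the right in both panels. Black triangles mark listed transcription starts and white ticks region midpoints: the MDM region holds no start, whereas both YSM regions hold those of Nectin2 and Gm34744.

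Nectin2 (chr7:19716644-19749573), a gene of 32.9 kb read from right to left, had both YSM regions at its right end, the transcription start. Their midpoints lay 132 and 393 bp upstream of the start. The first region covered 869 bp of the gene and the second 608 bp. The regions shared 1740 bp, 87.0% of each, and together they covered 2262 bp, from 868 bp inside Nectin2 to 1393 bp beyond its start. They therefore describe 1 place and are not 2 independent observations. In the YSM list 37.8% of regions overlapped another region of the list, and in the MDM list 33.6%.

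The same bases carry the start of a long non-coding RNA gene on the other strand, Gm34744 (chr7:19749570-19754953). The regions covered 1136 and 1397 bp of Gm34744, more than of Nectin2, and both midpoints lay inside it. It has 3 listed starts, all inside both YSM regions, and the midpoint of the first region lay 31 bp from the nearest of them. With starts of all gene types, Gm34744 was nearer than Nectin2 to both YSM midpoints, the second at 230 bp. The mark cannot be assigned to either strand, since CUT&Tag fragments of double-stranded DNA carry none. Of the 892 YSM regions, 93 held a listed transcription start (10.4%), against 46 of 428 MDM regions (10.7%). Starts on both strands, as here, were held by 10 YSM regions (1.12%), the pair at Nectin2 among them, and by 2 MDM regions (0.467%).

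The MDM region held no listed start. Its midpoint, like those of both YSM regions, fell outside every protein-coding gene, as did 49.5% of MDM and 37.9% of YSM regions. The regions thus differed in kind of place: the MDM region lay in an interval between genes and the YSM regions covered a promoter. With 1 place per list this difference has no replication.

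The window of Nectin2, 300 bases long, held the GC box GGGCGG, a motif of the SP and KLF factors, 3 times on the strand of the gene. Copies lay at -34 to -29 and -11 to -6 before the start and at 28 to 33 after it. The cAMP response element TGACGTCA followed at 40 to 47, within the transcribed part and not printed above. These copies do not overlap. Of 32817 distinct promoter windows, 35.6% held GGGCGG and 1.79% held TGACGTCA on either strand. Of 13 distinct windows of protein-coding genes in the cluster, 9 held the GC box and 1, that of Nectin2, the response element. Apoe has 3 of these windows and Clasrp 2. Relb, Apoc1 and Cblc have no listed start and so no window to search. In base composition the Nectin2 window was 62.7% G and C with 20 CG dinucleotides, against medians of 52.7% and 7 over all windows, and 76.9% of windows had a lower G and C share.

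The Apoc4 window had 1 GC box, at -130 to -125, a G and C share of 55.0% and 5 CG dinucleotides. At Apoe the middle start had a pair of overlapping TATA box matches (TATAAA, held by 13.6% of windows), at -100 to -95 on the opposite strand and at -96 to -91 on the strand of the gene. The windows of the outermost and the innermost Apoe starts held none of the 10 motifs. The letters of PU.1 (GAGGAAGT), AP-1 (TGANTCA), C/EBP (TTGCNNAA), the IRF and PU.1 composite (GAANNGAA), the SMAD palindrome (GTCTAGAC), the E-box (CACGTG) and the LXR direct repeat, a pair of AGGTCA copies spaced by 4 bases, were in no member's window. Among all windows 3.20% held the PU.1 letters, 7.81% AP-1, 10.8% C/EBP, 20.1% the composite, 0.213% SMAD, 7.15% the E-box and 0.0152% the LXR repeat. The sequence of the MDM region was not analysed here, so nothing is said of motifs in it.

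The members stand among other genes, and the window from 100 kb left of Apoc4 to 100 kb right of Nectin2 touched 14 protein-coding and 5 lncRNA genes in 271 kb. Left of the apolipoprotein genes came Zfp296, which encodes a zinc finger protein, Clasrp, a splicing protein gene, Relb, which encodes a subunit of NF-kappa B, and Clptm1, a membrane protein gene. Between Apoe and Nectin2 stood Tomm40, the channel of protein import into mitochondria. Right of Nectin2 followed Bcam, a laminin-binding adhesion molecule, Cblc, a ubiquitin ligase of the Cbl family, and Bcl3, a nuclear partner of NF-kappa B. Relb lay 54.5 kb from the MDM region and 120 kb from the nearest YSM region, and Bcl3 lay 58.5 kb from a YSM region and 125 kb from the MDM region.

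The nearer list changed once along the window. From Zfp296 to Tomm40 every protein-coding gene had an end nearer to the MDM region, 10 genes in all, and from Nectin2 to Bcl3 every one had an end nearer to a YSM region, 4 genes. Tomm40, the last on the MDM side, lay 17.4 kb from the MDM region and 34.3 kb from the first YSM region. Nectin2, the first on the YSM side, lay 0.132 kb from a YSM region, and its left end 32.7 kb from the MDM region. Bcam followed at 6.17 kb from a YSM region and 72.2 kb from the MDM region. This order follows from where the 2 places lie and is no separate result.

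**Figure D3:**
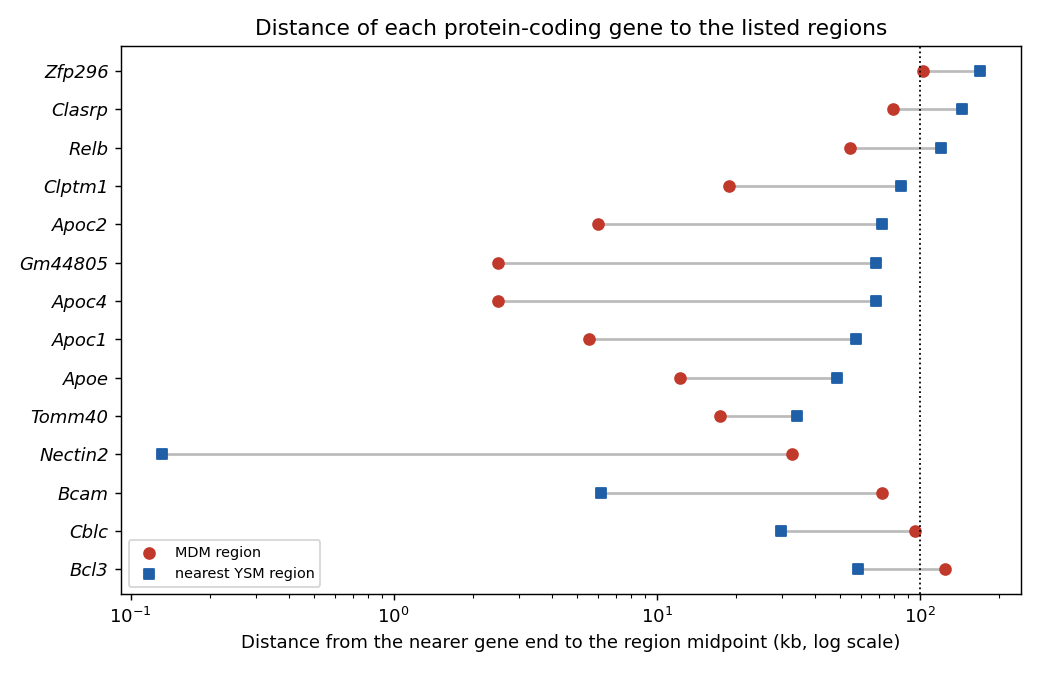
Distance in kb (log axis) from the nearer end of each of 14 protein-coding genes, in genome order from the top, to the midpoint of the MDM region (red circles) and of the nearest YSM region (blue squares); the dotted line is at 100 kb. The nearer list turns from MDM to YSM between Tomm40 and Nectin2.

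Of these 14 genes, 12 had the MDM region within 100 kb and 11 had a YSM region. Over all protein-coding genes the shares were the 2.41% and 5.68% given above. Regions of both lists lay within 100 kb of 27 genes (0.123%), and 10 of the 27 were in this window: Clptm1, Apoc2, Gm44805, Apoc4, Apoc1, Apoe, Tomm40, Nectin2, Bcam and Cblc. These 10 genes share the same 3 regions, so they are 1 locus counted 10 times, and since the rule chose the regions nothing is read from the shares.

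Genes stood close together at these regions. The part was chosen as a cluster of neighbouring genes, so nothing is read from the ranks that follow. Gm44805, whose span covers Apoc2 and Apoc4, is counted as a separate gene. The MDM region had 12 protein-coding genes within 100 kb of its midpoint, against a median of 1 in the MDM list, and 2 of 428 MDM regions had as many or more. Each YSM region had 11, against a median of 1 and a highest value of 26 in the YSM list, and 12 of 892 (1.35%) had as many or more. Distance alone does not single out a target of the MDM region, which had 5 protein-coding genes (Apoc4, Gm44805, Apoc1, Apoc2 and Apoe) within 12.3 kb. The number within that distance was not counted for other listed regions.

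**Figure D4:**
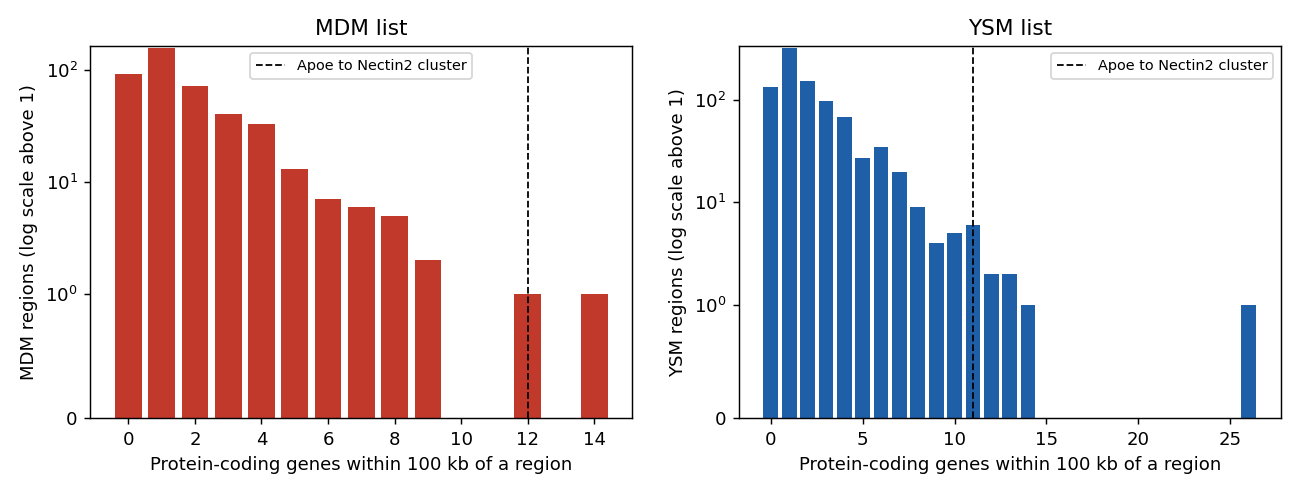
Number of listed regions (vertical axis, linear to 1 and log above) by the number of protein-coding genes within 100 kb of the midpoint, MDM list left and YSM list right. Dashed lines mark the regions of the cluster, at 12 genes for MDM and 11 for YSM, where each list has few regions.

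No other region of either list lay near. On chromosome 7 the lists held 14 MDM and 37 YSM regions. With overlapping regions joined, the nearest other MDM group stood 5.15 Mb from the MDM region, against a median of 0.360 Mb over the 350 MDM groups, and 18.3% of groups stood as far or farther. The nearest other YSM group was 3.59 Mb from the Nectin2 group, against a median of 0.133 Mb over 704 groups (11.9% as far or farther). The members were thus at most 2.49 kb from 1 of the 3 genes, and the next region of either list lay 3.52 Mb to the left of the MDM region.

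Between the opposite lists the distance was short. The MDM region ended 63.8 kb before the first YSM region began, the smallest such gap of the 350 MDM groups, of which 6 had a YSM group within 100 kb and 13 within 200 kb. The median gap was 2531 kb. The cluster was chosen with these lists known, so nothing is read from the rank of its gap. The next pairs were separated by 66.2 kb at Slc25a26, which encodes a mitochondrial carrier, and by 74.0 kb between Ercc6l2 and Ptch1. Between the regions of the Apoe cluster 3 protein-coding genes lay whole, Apoc1, Apoe and Tomm40, and Nectin2 lay there nearly whole. In the other 12 pairs within 200 kb the number of whole genes between had a median of 0 and reached 7. A listed transcription start lay in a region of 4 of the 13 pairs. Pairs were formed per MDM group, so the YSM groups at Amotl1 and at Hs2st1 recur, and the pairs are not all separate places. The recurring group at Amotl1 holds a start.

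**Figure D5:**
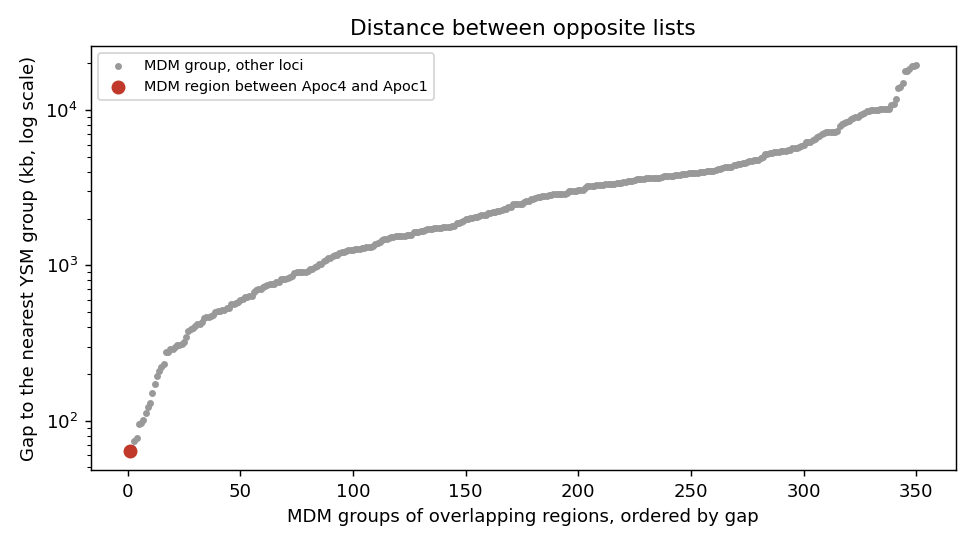
Gap in kb (log axis) from each of 350 MDM groups of overlapping regions to the nearest YSM group, in order of the gap. The red point is the MDM region between Apoc4 and Apoc1, the lowest at 63.8 kb, at a locus chosen with the lists known.

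The deposited score was 1 for each of the 3 regions, as for 98.4% of MDM and 97.6% of YSM regions. The whole number that ends each region name was 4 for the MDM region and 4 and 1 for the YSM regions. It was 4 in 43.2% of MDM and 14.2% of YSM regions, and 1 in 30.7% of YSM regions. What these numbers count is not stated by the labels or the files, so they rank nothing.

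Genes that act with Apoe or resemble it were looked up as lists. The shares over all genes were again 2.41% for MDM and 5.68% for YSM. Of 23 apolipoprotein genes, 4 (17.4%) had an MDM region within 100 kb and the same 4 had a YSM region. All were those of this cluster, so the other 19, among them Clu and Apod, which are expressed in brain, had none. These 4 genes share the regions that the rule chose, so nothing is read from their share. Of 24 receptors and partners of Apoe, 1 (4.17%) had an MDM region and 0 a YSM region. It was Msr1, a scavenger receptor of macrophages that takes up modified lipoproteins. Its 2 regions overlap and together span chr8:39640687-39642959, so they are 1 place. The midpoint of chr8:39640959-39642959 lies inside the gene. Lrp1, Trem2 and Sorl1 had no region within 100 kb in either list. Of 23 genes of the LXR pathway and sterol efflux, 1 (4.35%) had YSM regions and 0 an MDM region. It was Rxrg, which encodes a retinoid X receptor, the kind of protein that pairs with LXR, with 7 regions within 100 kb. Nr1h2 and Nr1h3, which encode the LXR receptors, and the efflux transporter genes Abca1 and Abcg1 had none.

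On the side of Nectin2, 1 of 15 nectins, nectin-like genes and their ligands had a region in either list, and it was Nectin2. The related adhesion genes Nectin1, Nectin3 and Nectin4 had none, nor did Cd226 and Tigit, whose products bind CD112. Of 22 genes of disease-associated microglia, the lipid-handling state known from models of neurodegeneration, 1 had a region in either list, Apoe itself. Clec7a, Cst7, Lpl, Spp1 and Gpnmb had none within 100 kb. Counts of 1 of 15 and 1 of 22 are 6.67% and 4.55%, beside 2.41% and 5.68% over all genes, and no test of the lists was made. Nectin2 and Apoe are members named by the rule, so nothing is read from these shares.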

How the data were processed

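The start points were 2 lists of H3K27ac regions without a header. The score is a whole number deposited by the authors with no stated meaning. The submitters' processing notes name Trimmomatic 0.39, Bowtie2 2.2.5, Picard, HOMER and mm10, with no roles; no source used here states the threshold or direction of the comparison. Every region is 2001 bp long. Starts were shifted to count from 1. A region belonged to the cluster if its midpoint lay in or within 100 kb of Apoe, Apoc4 or Nectin2. Genes (GRCm38.p6, without the mitochondrial ones) and promoter windows came from RefSeq tables. No test could be made: the rule used the lists, and values per library were not used. Distances were tested on simulated data (pandas 2.3.3, Python 3.11.15).

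Members, lists and motifs were chosen with earlier results of these data known. Named genes were the members, genes of the window and, per list, up to 12 genes with a region within 100 kb; genes named as lacking one, and those at other close pairs, were chosen after their values were seen. A further list, 26 genes of the Apoe interval, had 11 genes (42.3%) within 100 kb of each list's regions. The shares over all genes were 2.41% for MDM and 5.68% for YSM. This list was drawn up for the interval that holds the chosen regions, so nothing is read from its share. On the YSM side the 11 genes include Blk, which lies on chromosome 14. The libraries named for H3K27me3 (1 per group) were not analysed here. The series text names H3K4me3 as the second antibody instead, so their mark is uncertain.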

Additional observations from a re-analysis of the deposited data

How the results depend on the processing

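No paired analysis was possible because each list is a single set of regions for a whole group, which also means that no library could be left out and that depth is unknown. The 1 MDM and 2 YSM regions stayed with windows of 50 and 200 kb and with placement by any overlap. The YSM count became 1 when overlapping regions were joined and 1 when gaps up to 5 kb were also joined, because these regions overlap. Measured to gene ends, Apoc4 (tied with Gm44805) and Nectin2 were also nearest from region edges, with genes of all types and from starts of protein-coding genes. Both YSM midpoints lie inside Gm34744, whose end is 3 bp farther away than that of Nectin2. From starts of all gene types, an alternative chosen after seeing the data, Gm34744 was nearest to the YSM regions at 31 and 230 bp. Both distances are from its listed start at chr7:19749736. Its other listed starts lay no nearer than that of Nectin2. The share of all genes with an MDM region rose from 2.41% to 4.23% at 200 kb, and that with a YSM region ran from 3.66% at 50 kb to 9.54% at 200 kb. Of the 102 distinct genes in the 5 pathway lists, 6 had a YSM region at 100 kb, 3 at 50 kb and 12 at 200 kb. With an MDM region there were 6 at 100 kb, 6 at 50 kb and 7 at 200 kb. The window itself sets these counts. At 100 kb all these genes were of this cluster, except Rxrg for YSM and Msr1 for MDM.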

Other observations

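A limit of 200 kb added genes of the pathway lists outside the cluster. On the MDM side it added Clec7a, which encodes the beta-glucan receptor dectin-1, at 153 kb. On the YSM side it added Soat1, an enzyme gene of cholesterol esterification, at 107 kb, Fabp5, a fatty acid binding protein gene, at 116 kb, the adhesion gene Cadm1 at 144 kb, B2m at 153 kb and Lgals3, which encodes galectin-3, at 165 kb. Pvr, a nectin-like gene also on chromosome 7, lay 154 kb from the YSM regions at Nectin2. None of these genes had a region of that list within 100 kb.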
